A study of Mus musculus with 13 samples.

Results

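A set of 37 genes of the complement and coagulation systems was examined here in the livers of alcohol-fed mice, out of 53392 genes in the count table. The members were chosen by gene symbol, as liver-made components, regulators and inhibitors of both cascades with 1 complement receptor, and 18 of them belong to complement and 19 to coagulation and fibrinolysis. All 37 were found in the table and all 37 passed the count filter, which left 14317 genes to be tested. RNaseq was performed on whole-liver RNA from 13 female mice that were 8 to 14 weeks old, and every mouse took 28% of its calories as ethanol for 4 weeks. Every mouse was homozygous for Albumin-Cre and Rosa26-loxP-stop-loxP-rtTA, so that the Dox-responsive activator rtTA is made in hepatocytes. ASAH+ mice had in addition the TRE-ASAH1 transgene, a tetracycline response element before the gene of the lysosomal acid ceramidase, and their ASAH- littermates did not. The groups were 4 ASAH- controls fed ethanol with Dox at 200 mg/l (Etoh-Dox), here the ASAH- controls, 5 ASAH+ mice under the same diet, here the induced mice, and 4 ASAH+ mice fed ethanol without Dox (Etoh), here the Etoh controls, in which the transgene is silent. For the ASAH+ mice the sample titles contradict the descriptions and induction labels on Dox, and the groups follow the latter. The design text of the series gives 4 mice per group, whereas 5 samples are labelled as induced mice, and all 13 were used. All 13 mice were fed ethanol, so that none of the comparisons bears on ethanol itself. The study asked what raised acid ceramidase in hepatocytes does to the liver under alcohol. The induced mice differ from the ASAH- controls in the transgene and its product, and from the Etoh controls in Dox and the product together, which cannot be told apart there. The ASAH- controls and the Etoh controls, neither of them induced, differ in Dox and in carrying the transgene, and these cannot be told apart either.

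As background, hepatocytes make most of the complement and clotting proteins that circulate in plasma. Complement is started by antibody through C1q, C1r and C1s, by microbial sugars through mannose-binding lectins and their proteases, or by spontaneous activation of C3, and all routes meet at cleavage of C3 and end in a pore of C5b with C6, C7, C8 and C9. Coagulation runs through vitamin K-dependent proteases to thrombin, which cuts fibrinogen into fibrin, while antithrombin and protein C restrain it and plasmin dissolves the clot. Several of these genes, among them the fibrinogen genes and C3, are acute phase genes that hepatocytes raise in inflammation. In liver disease, clotting times are read as a measure of the synthetic function of hepatocytes.

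Levels are given as CPM, the counts of a gene relative to the library total scaled by the TMM method. The libraries held 17819486 to 35358711 counts. All 22 pairs of replicates within a group differed by more than sampling noise. Asah1 stood at 40.0 to 55.0 CPM in the ASAH- controls, at 9668 to 15935 in the induced mice, and at 44.2 to 48.3 in the Etoh controls, which is the order that the descriptions and induction labels give. The 7 hepatocyte markers summed to 116534 to 135313, 85232 to 121802 and 97059.9 to 123773 CPM in these groups. Markers of other cells were not even across the groups. The 7 Kupffer cell markers summed to 259.6 to 536, 195 to 371 and 208 to 251 CPM, and the 5 red cell genes to 215 to 1714, 241 to 871 and 135 to 192 CPM. Replicate 3 of the ASAH- controls held the highest sum of both lists. The 5 red cell genes all had an unadjusted edgeR p under 0.05 in both comparisons with the Etoh controls, the 6 markers of sinusoidal endothelium summed to 137 to 253, 121 to 167 and 157 to 218 CPM, and the 5 neutrophil genes to no more than 2.13 CPM in any mouse. The log2 ratio of the clock genes Dbp to Arntl, which swings over the day, ran from -1.64 to 6.78 over the mice. With this ratio as a covariate, 0 members were called in each comparison (edgeR), and the median log2 fold changes of the members were -0.0084, -0.081 and -0.076 for the induced mice against the ASAH- controls, the induced mice against the Etoh controls, and the ASAH- controls against the Etoh controls. The part of the cell markers in the results below was not tested. In bulk tissue, fewer cells of a type and less RNA per cell cannot be told apart.

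The members together took 4.44% ± 0.138 of all counts in the ASAH- controls (SD, n = 4), 4.46% ± 0.298 in the induced mice (n = 5) and 4.72% ± 0.324 in the Etoh controls (n = 4). Single mice ranged from 4.13 to 5.07%, and the ranges of the 3 groups overlapped. C3 alone took 0.968 to 1.44% of the counts of a mouse and the fibrinogen chains together 0.951 to 1.58%. Per kilobase of the principal transcript, C3 had the highest mean level with 2249.7 CPM per kb, followed by Fgg (2102), Fga (1919.9), Kng1 (1183), Fgb (1170.1), Plg (993) and F2 (909.7). The lowest were C5ar1 with 0.589 CPM per kb, C6 with 6.27, Pros1 with 16.7 and F11 with 17.1. The ranges of C3, Fgg and Fga overlapped per kb, whereas C5ar1 lay below every other member in every mouse.

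**Figure D1:**
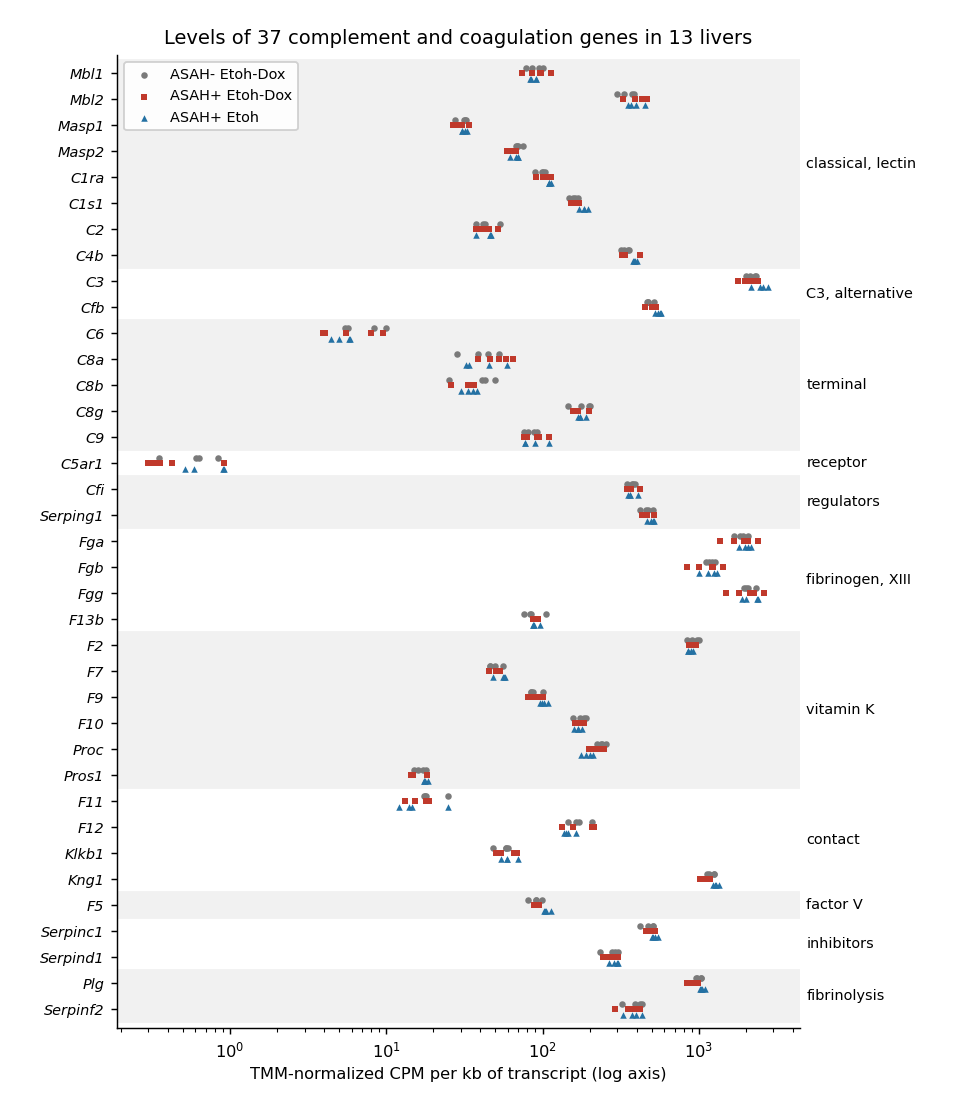
Level of each member in each mouse, in CPM per kilobase of the principal transcript on a log axis, with members ordered by role from top to bottom and 1 symbol per mouse, for the ASAH- controls (ASAH- Etoh-Dox), the induced mice (ASAH+ Etoh-Dox) and the Etoh controls (ASAH+ Etoh). C3, the fibrinogen chains and Kng1 stand at the top of the scale, C5ar1 and C6 at the bottom, and for most members the 3 groups lie over one another.

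No member passed the test in any comparison (edgeR, adjusted p under 0.1). Over all genes tested, 0.0140% were called between the induced mice and the ASAH- controls, 0.0140% between the induced mice and the Etoh controls, and 0.0140% between the ASAH- controls and the Etoh controls, which is 2 genes each. The smallest adjusted p of a member was 0.9997, 0.511 and 0.389, in this order of the comparisons. An unadjusted edgeR p under 0.05 was found for 1 member between the induced mice and the ASAH- controls, or 2.7% of the members against 2.86% of all genes tested. The corresponding numbers were 6 members (16.2%, against 7.29% of all genes) between the induced mice and the Etoh controls, and 6 (16.2%, against 9.19%) between the ASAH- controls and the Etoh controls. Of these last 6 and 6, 4 and 5 were lower on Etoh-Dox. Both comparisons use the same 4 Etoh controls, so that they are not independent of each other. In the comparison with the ASAH- controls the share of members was near that of all genes. With 1 mouse left out the number of members at that p was 0 to 1, being 0 without replicate 4 of the ASAH- controls, replicate 4 of the induced mice or replicate 3 of the Etoh controls. It was also 0 under limma-voom, edgeR or DESeq2 on only the groups compared, and the replicate number as a block. Under DESeq2 on all 13 mice it was 3 of the 37, against 503 of the 28532 genes that had a p there. In both comparisons with the Etoh controls the red cell genes stood apart as well, since the lowest sum on Etoh-Dox, 215 CPM, lay above the highest on Etoh, 192. The sinusoidal endothelial markers were lower in the induced mice, at an unadjusted edgeR p under 0.05 for 5 of 6 against the Etoh controls (median log2 fold change -0.48) and for 4 of 6 against the ASAH- controls (-0.40). Between the ASAH- controls and the Etoh controls, Kupffer cell markers were higher at such a p for 5 of 7 (median 0.56). Stellate cell markers were higher at such a p for 2 of 6 (median 0.27), and endothelial markers passed it for 0 of 6. The part of any of these lists in these counts was not tested.

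Between the induced mice and the ASAH- controls, 18 members were higher and 19 lower, with a median log2 fold change of -0.0039 against -0.0023 over all genes tested. Between the induced mice and the Etoh controls, 13 were higher and 24 lower, with a median of -0.067 against 0.013. Between the ASAH- controls and the Etoh controls the counts were again 13 and 24, and the median was -0.064 against 0.016. The 95% interval of the fold change lay within 1.5-fold in either direction for 32, 33 and 34 of the 37 members, in the order of the comparisons above. The members with wider intervals were C6, C8a, C8b, C5ar1 and F11 in the first comparison, C6, C8a, C5ar1 and F12 in the second, and C6, C5ar1 and F11 in the third. DESeq2 on the 13 mice, the tool of the study, called 3 members (8.11% of the 37) between the induced mice and the Etoh controls. This compares with 4.94% of the 1982 genes that it gave an adjusted p there. Between the ASAH- controls and the Etoh controls it called 2 members (5.41%), against 1.73% of 8625 genes. The bases are unlike, since the 37 include members without an adjusted p, such as C6 and C5ar1 in the former comparison and C5ar1 in the latter. Of the 28532 genes with an unadjusted p, it called 98 and 149. All of the members called were lower on Etoh-Dox, and it called 0 members between the induced mice and the ASAH- controls. edgeR adjusted over 14317 genes in each comparison. limma-voom called 0 members in each.

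**Figure D2:**
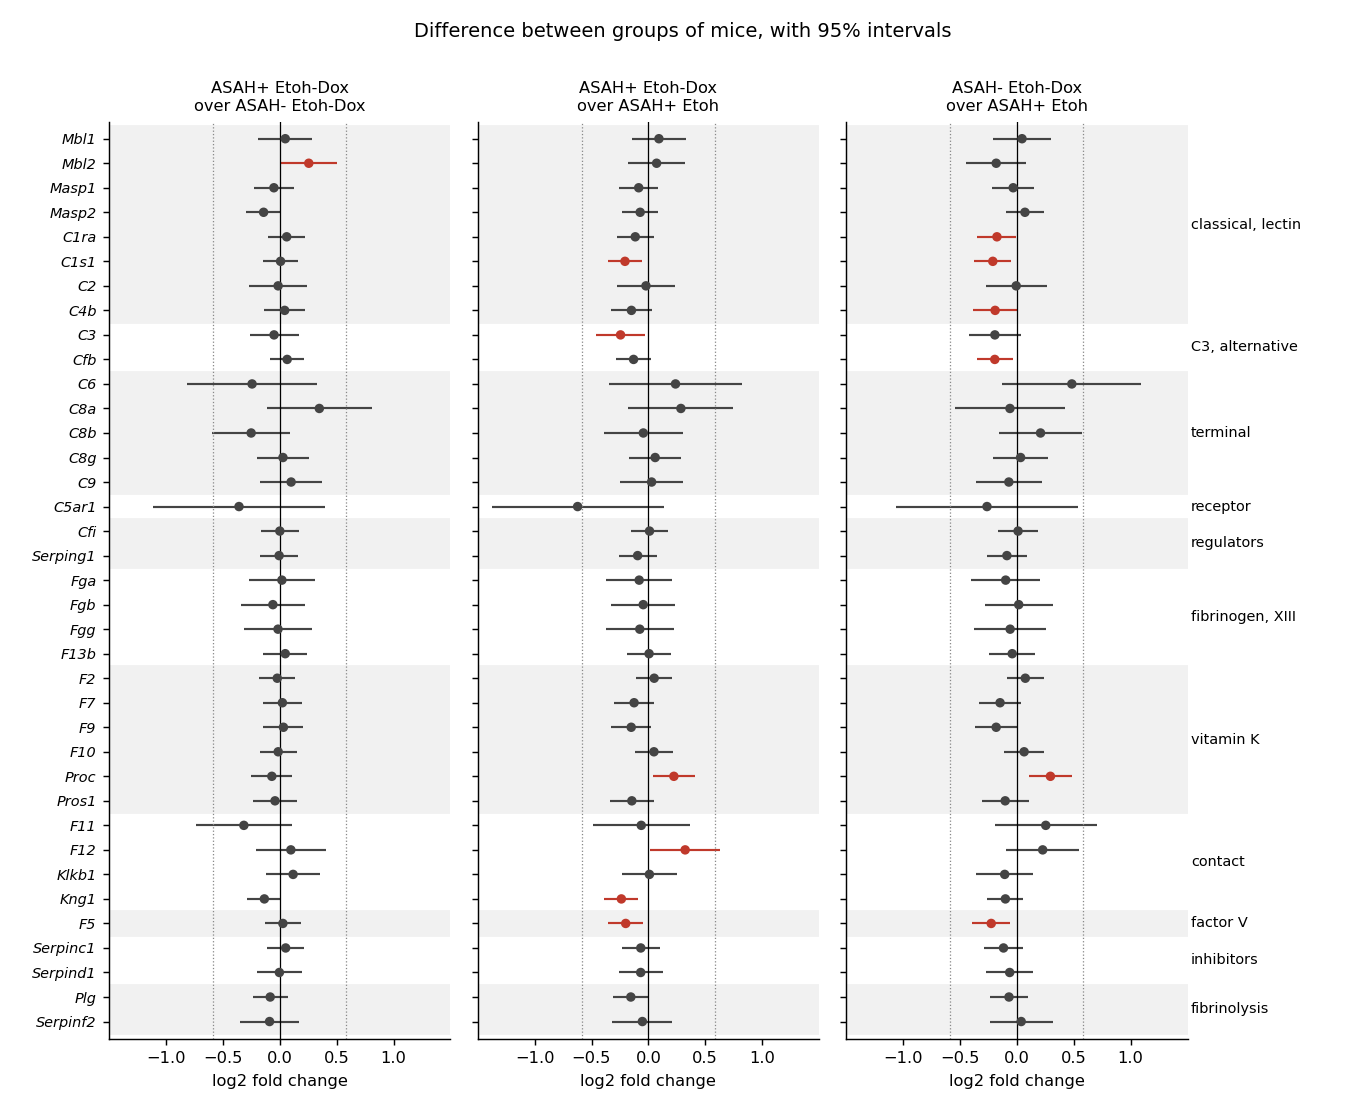
Log2 fold change of each member in the 3 comparisons (points) with its 95% interval (lines) from edgeR, with dotted lines at a 1.5-fold change and red for an unadjusted p under 0.05. Most intervals cross 0 and lie between the dotted lines, and the widest belong to C5ar1 and C6.

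The classical and lectin routes were represented by 8 members. None passed the test. Mbl2 (ENSMUSG00000024863, chr19:30232942-30239687, GRCm38), a mannose-binding lectin that recognises sugars on microbes, had the smallest unadjusted p of all members between the induced mice and the ASAH- controls. It stood at 417, 409.7, 359.8 and 325 CPM in the 4 ASAH- controls, 507, 357, 472, 490.2 and 428 in the 5 induced mice, and 496, 403, 432 and 384 in the 4 Etoh controls. The groups overlapped, since replicate 2 of the induced mice, at the low end, lay among the ASAH- controls. Mbl2 was higher in the induced mice than in the ASAH- controls with a log2 fold change of 0.25 ± 0.12 (SE; 95% interval 0.0040 to 0.51), and in 17 of the 20 pairs of mice. This did not pass the test (unadjusted edgeR p = 0.0469, adjusted p = 0.9997, exact permutation p = 0.0873). Its unadjusted p was above 0.05 in 7 of the 13 fits without 1 mouse, which were those without replicate 3 or 4 of the ASAH- controls, replicate 1, 3 or 4 of the induced mice, or replicate 2 or 3 of the Etoh controls, and over all 13 ran from 0.00873 to 0.144 (edgeR). The other mannose-binding lectin, Mbl1, ranged from 116 to 176 CPM over the 13 mice, and the same difference was 0.048 on the log2 scale.

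Masp2, the protease of the lectins that cuts C4 and C2, was the 1 member for which the induced mice and the ASAH- controls did not overlap, against 0.887% of all genes tested. It stood at 181 to 207 CPM in the 5 induced mice and at 208 to 231 in the 4 ASAH- controls, with a log2 fold change of -0.14 ± 0.073 (SE; 95% interval -0.30 to 0.013) (unadjusted edgeR p = 0.0699, adjusted p = 0.9997, exact permutation p = 0.0317). It is named after its values were seen. Masp1, a second protease of the lectins, ranged from 143 to 180.4 CPM with log2 fold changes of -0.052, -0.085 and -0.033 in the 3 comparisons.

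C1s1, the protease of the C1 complex that cuts C4, stood at 473, 463, 497 and 432 CPM in the 4 ASAH- controls, 459, 449.6, 507, 474 and 453 in the 5 induced mice, and 543, 504, 540.2 and 573 in the 4 Etoh controls. The Etoh controls were the highest, except that replicate 3 of the induced mice lay just above the lowest of them, and the induced mice and the ASAH- controls lay over one another. C1s1 was lower in the induced mice than in the Etoh controls with a log2 fold change of -0.21 ± 0.071 (SE; 95% interval -0.36 to -0.052), in 19 of the 20 pairs of mice (unadjusted edgeR p = 0.0121, adjusted p = 0.551, exact permutation p = 0.0238). It was lower in the ASAH- controls with a log2 fold change of -0.21 ± 0.076 (SE; 95% interval -0.37 to -0.050), in 16 of the 16 pairs of mice (unadjusted edgeR p = 0.0139, adjusted p = 0.441, exact permutation p = 0.0286). DESeq2 on the 13 mice gave adjusted p = 0.0304 and 0.0607 for these comparisons, and the alternatives tried together ranged from 0.0304 to 0.916 and from 0.0607 to 0.763.

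C1ra, the protease that activates C1s and a neighbour of C1s1 on chromosome 6 (chr6:124512405-124523443, beside chr6:124530345-124542359, GRCm38), stood at 295, 310.2, 265 and 301 CPM in the 4 ASAH- controls, 310.3, 272, 301, 336 and 308 in the 5 induced mice, and 329, 339, 326 and 329 in the 4 Etoh controls. The 4 Etoh controls lay close together and above all 4 ASAH- controls. C1ra was lower in the ASAH- controls with a log2 fold change of -0.18 ± 0.080 (SE; 95% interval -0.35 to -0.0048) and did not pass the test (unadjusted edgeR p = 0.0447, adjusted p = 0.531, exact permutation p = 0.0286). C4b, which encodes the C4 protein cut by both routes, stood at 1718, 1898, 1933 and 1796 CPM in the 4 ASAH- controls, 2269, 1818, 1820.4, 1805 and 1744 in the 5 induced mice, and 2169.9, 2086, 2088 and 2044 in the 4 Etoh controls. Again the ASAH- controls lay below the Etoh controls, with a log2 fold change of -0.19 ± 0.089 (SE; 95% interval -0.38 to -0.0012) (unadjusted edgeR p = 0.0488, adjusted p = 0.539, exact permutation p = 0.0286). Replicate 1 of the induced mice was the highest of all 13. C2, which joins C4 in the C3 convertase, ranged from 98.6 to 142 CPM and had log2 fold changes of -0.015, -0.021 and -0.0062. Salmon divides reads among near-identical genes, and the transcripts of C1ra, C1s1 and C4b share 56.9%, 33.5% and 48.3% of their 31-base words with C1rb, C1s2 and C4a. These copies held 145, 36 and 2743 counts over the 13 mice, and with them added to the member no member passed the test, while the unadjusted p of C4b between the ASAH- controls and the Etoh controls went from 0.0488 to 0.0515 (edgeR), which takes the members under 0.05 there from 6 to 5.

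**Figure D3:**
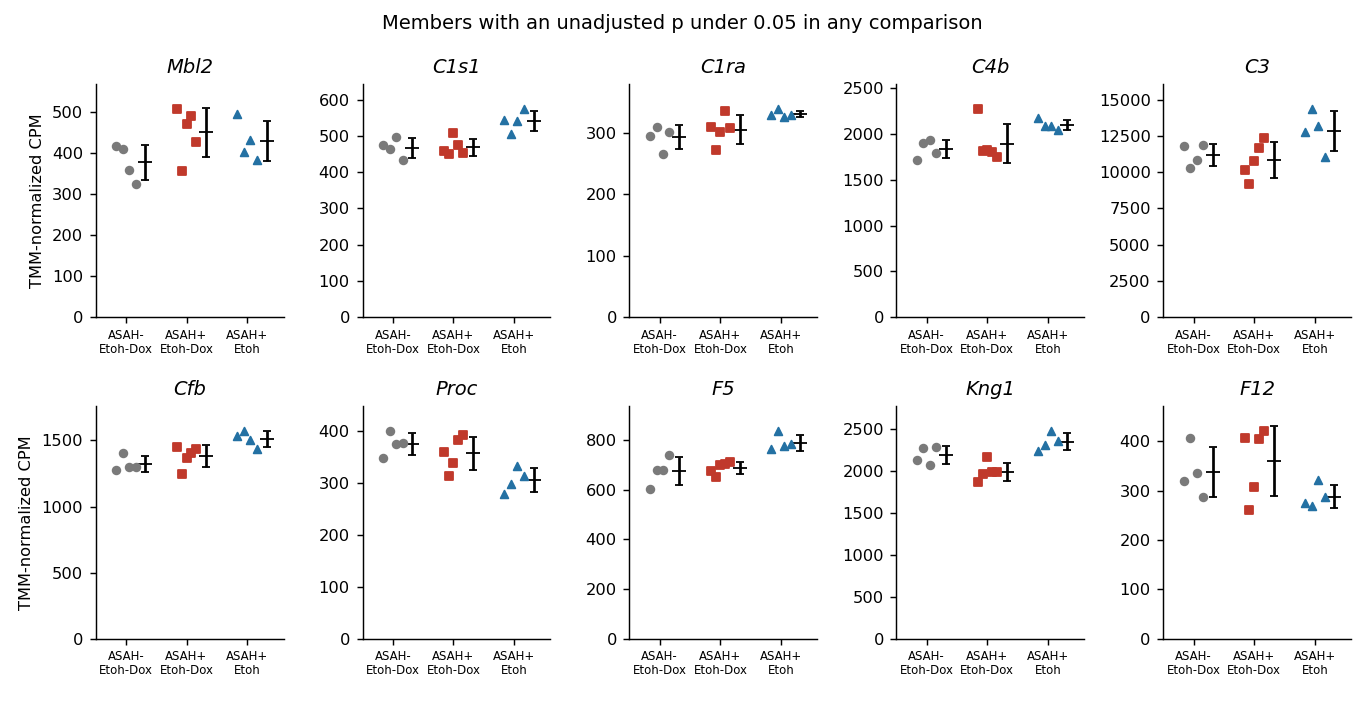
Level in each mouse (points, TMM-normalized CPM, linear axes from 0) of the 10 members with an unadjusted edgeR p under 0.05 in any comparison, with the mean and SD of each group beside its points. The Etoh controls sit highest for C1s1, F5 and Kng1 with little or no overlap and lowest for Proc.

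C3 and factor B form the alternative route, and C3 is the protein on which all routes meet. C3 (ENSMUSG00000024164, chr17:57203970-57228136, GRCm38) had the most counts of all members. It stood at 11794, 10312, 10845 and 11879.9 CPM in the 4 ASAH- controls, 10172, 9178, 10767, 11661 and 12321 in the 5 induced mice, and 12741, 14339, 13175 and 11024 in the 4 Etoh controls. C3 was lower in the induced mice than in the Etoh controls with a log2 fold change of -0.24 ± 0.10 (SE; 95% interval -0.46 to -0.030), in 18 of the 20 pairs of mice, and did not pass the test (unadjusted edgeR p = 0.0285, adjusted p = 0.619, exact permutation p = 0.0635). Replicate 4 on Etoh, the lowest of its group, lay within the range of the mice on Etoh-Dox. Against the ASAH- controls, the difference of the induced mice was -0.051 on the log2 scale (95% interval -0.27 to 0.16).

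Cfb, factor B, stood at 1273, 1408, 1303 and 1299 CPM in the 4 ASAH- controls, 1453, 1243, 1368, 1406 and 1436 in the 5 induced mice, and 1534, 1573, 1505 and 1435 in the 4 Etoh controls. All 4 ASAH- controls lay below all 4 Etoh controls, with a log2 fold change of -0.19 ± 0.075 (SE; 95% interval -0.35 to -0.035) (unadjusted edgeR p = 0.0204, adjusted p = 0.465, exact permutation p = 0.0286). Cfb and C2 lie side by side on chromosome 17 (chr17:34856374-34862518 and chr17:34862604-34898265, GRCm38), and a readthrough gene across both (Gm20547) shares 75.5% of the words of Cfb but held only 362 counts over the 13 mice. Members whose groups did not overlap in this comparison numbered 6 of 37 (C1ra, C1s1, C4b, Cfb, Proc and F5), or 16.2%, against 5.50% of all genes tested. Between the induced mice and the Etoh controls they numbered 3 (Kng1, F5 and Plg), or 8.11%, against 2.58%.

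The terminal pore was represented by 5 members, among them C6 and C8a, which had the largest spread within groups after the receptor. C9, the subunit that polymerises into the pore, stood at 165, 188, 155 and 181 CPM in the 4 ASAH- controls, 224, 188, 155, 193 and 162 in the 5 induced mice, and 158, 225, 184 and 157 in the 4 Etoh controls. The groups overlapped throughout, and its log2 fold changes were 0.099, 0.028 and -0.071 in the 3 comparisons. C8 is built from 3 chains made by separate genes, and the ratios between their levels were not constant over the mice. C8a ranged from 103 to 235 CPM, C8b from 56.3 to 111 and C8g from 167 to 231. The ratio of C8a to C8b, which lie side by side on chromosome 4, ran from 1.52 to 2.88 over the mice. Its SD was 0.35 on the log2 scale, against 0.37 for C8a and 0.27 for C8b alone. The ratios of C8a and C8b to C8g had SDs of 0.38 and 0.34, against 0.15 for C8g alone. In the induced mice against the ASAH- controls, C8a was 0.35 ± 0.21 and C8b -0.25 ± 0.16 on the log2 scale (SE), and neither passed the test (exact permutation p = 0.135 and 0.325). Both values moved with single mice, since without replicate 3 of the ASAH- controls C8a was 0.21 and C8b -0.42, and without replicate 4 of the ASAH- controls they were 0.49 and -0.13.

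C6, which binds C5b to begin the pore, was low in these livers. It stood at 15.6, 16.5, 28.5 and 24.1 CPM in the 4 ASAH- controls, 22.8, 27.3, 11.7, 16.004 and 11.4 in the 5 induced mice, and 16.7, 12.7, 16.9 and 14.3 in the 4 Etoh controls. Its log2 fold changes were -0.24, 0.24 and 0.48, and all 3 intervals reached beyond a 1.5-fold change. The order of the mice in C6 resembled their order in the sum of the 7 Kupffer cell markers, which was 270.3, 259.6, 536 and 347 CPM in the ASAH- controls, 357, 371, 196, 299 and 195 in the induced mice and 251, 208, 230.5 and 240.0 in the Etoh controls. The 4 mice with the highest C6 were the 4 with the highest Kupffer cell markers, and the 2 with the lowest C6 were the 2 with the lowest markers. This pattern was chosen after its values were seen, and was not tested.

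**Figure D4:**
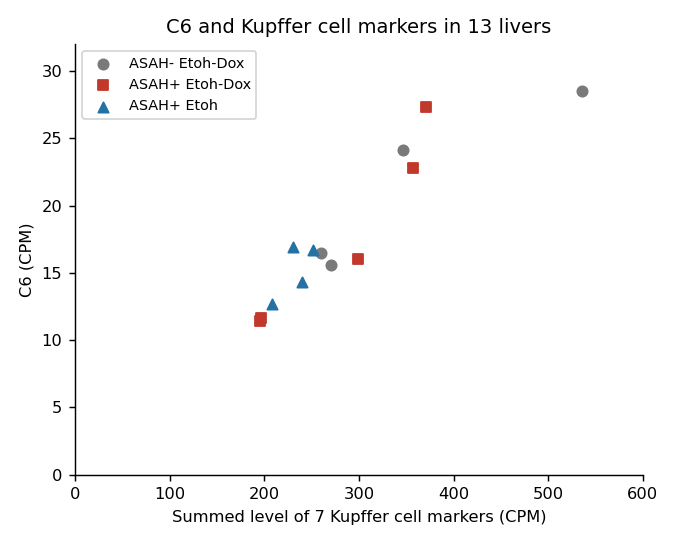
C6 against the summed level of 7 Kupffer cell markers in each of the 13 mice (both in TMM-normalized CPM, linear axes from 0), with 1 symbol per mouse. The 4 mice with the highest sums have the highest C6, and these are mice of both groups on Etoh-Dox.

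C5ar1, the receptor by which myeloid cells sense the fragment C5a, was the lowest member, with 19 to 84 counts per library. It stood at 1.60, 1.54, 2.12 and 0.894 CPM in the 4 ASAH- controls, 2.32, 0.901, 0.759, 1.08 and 0.824 in the 5 induced mice, and 2.30, 1.30, 1.48 and 2.31 in the 4 Etoh controls. Mice at 2.12 CPM or more occurred in each group, whereas all mice below 1.30, the lowest Etoh control, were on Etoh-Dox. The within-group SD was 0.52 on the log2 scale, the largest of the members. The log2 fold changes of -0.36, -0.62 and -0.26 had standard errors of 0.35 to 0.37, and all 3 intervals reached beyond a 1.5-fold change.

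No complement regulator passed the test. Serping1, the C1 inhibitor that also blocks kallikrein and factor XIIa, stood at 818, 839, 747 and 902 CPM in the 4 ASAH- controls, 917, 768, 803, 827 and 801 in the 5 induced mice, and 874, 906, 911 and 823 in the 4 Etoh controls. The groups overlapped, with log2 fold changes of -0.0062, -0.094 and -0.088. Cfi, the protease factor I that degrades C3b and C4b, ranged from 723 to 877 CPM with log2 fold changes of 2.3e-05, 0.010 and 0.010. In the comparison of the induced mice with the ASAH- controls, the 95% interval was -0.17 to 0.16 for Serping1 and -0.17 to 0.17 for Cfi.

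Fibrinogen, the substrate of the clot, is a hexamer of paired alpha, beta and gamma chains, whose genes Fgg, Fga and Fgb lie side by side on chromosome 3 (chr3:83007724-83015049, chr3:83026076-83033627 and chr3:83040141-83049863, GRCm38). The 250 bases before the RefSeq start of each gene are shown 5′ to 3′ on the strand of the gene. The levels of the 3 chains moved together over the mice, and the part of these bases in that was not tested. Capitals mark matches on either strand to CTGGGA, the core of the IL-6 response element, to GTTAAT, a core of the HNF1 site, or to TTGCNNAA, a core of the C/EBP site.
Fgg, chr3:83007474-83007723, plus strand, RefSeq on GRCm38.p6: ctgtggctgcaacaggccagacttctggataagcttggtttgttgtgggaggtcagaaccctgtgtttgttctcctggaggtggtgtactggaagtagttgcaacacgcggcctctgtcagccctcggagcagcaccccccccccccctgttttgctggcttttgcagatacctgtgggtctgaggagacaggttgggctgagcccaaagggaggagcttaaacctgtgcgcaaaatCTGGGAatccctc
Fga, chr3:83025903-83026152, plus strand, RefSeq on GRCm38.p6: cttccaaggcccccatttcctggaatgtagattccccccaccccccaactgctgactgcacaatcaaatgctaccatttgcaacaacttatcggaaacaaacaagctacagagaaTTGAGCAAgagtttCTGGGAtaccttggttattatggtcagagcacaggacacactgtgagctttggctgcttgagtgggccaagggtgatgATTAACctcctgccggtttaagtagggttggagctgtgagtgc
Fgb, chr3:83049864-83050113, minus strand, RefSeq on GRCm38.p6: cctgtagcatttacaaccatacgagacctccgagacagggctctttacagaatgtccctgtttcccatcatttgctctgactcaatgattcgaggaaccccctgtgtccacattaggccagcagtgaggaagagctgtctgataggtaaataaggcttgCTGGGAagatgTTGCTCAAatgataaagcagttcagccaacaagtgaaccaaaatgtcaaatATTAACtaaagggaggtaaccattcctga

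Each of the 3 windows held 1 match to CTGGGA, and those of Fga and Fgb held 1 match each to GTTAAT and TTGCNNAA, with no overlap between matches. The matches to CTGGGA lay 116 to 121 bases before the start of Fga, 86 to 91 before that of Fgb and 8 to 13 before that of Fgg. For Fga, the gene coordinates given above begin before the RefSeq start, so that its window overlaps them in part, with the GTTAAT match inside them. Of the 28 members with a window in the table, 13 held CTGGGA, 6 GTTAAT and 8 TTGCNNAA, which counted in windows was 14, 6 and 8 of their 30. Among all 32851 windows of 250 bases before a start the shares were 27.0%, 6.43% and 9.56%. A match describes the letters and not a bound site, and these data hold no measure of binding. Kng1, Serping1, Cfi, C2, Proc, Masp1, Plg, Cfb and C4b have no window in the table.

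Fga stood at 5366, 4314, 4935 and 4736 CPM in the 4 ASAH- controls, 3529, 4363, 6217, 5056 and 5327 in the 5 induced mice, and 5075, 5619, 5357 and 4674 in the 4 Etoh controls. The lowest and the highest value of the 13 mice both belonged to the induced group, in replicates 1 and 3. Fgb ranged from 3218 to 5408 CPM and Fgg from 2547 to 4445, and the same mice held the lowest and the highest values of all 3 chains. The ratio of Fga to Fgg stayed between 1.31 and 1.48, with an SD of 0.047 on the log2 scale, against SDs of 0.20 and 0.21 for the chains themselves. The ratio of Fgb to Fgg had an SD of 0.051. For C8a and C8g, whose proteins are joined by a disulfide bond, the SD of the ratio was 0.38, against 0.37 and 0.15 for the chains. For C8a and C8b it was 0.35, against 0.37 and 0.27. No fibrinogen chain passed the test. The log2 fold changes were 0.018, -0.081 and -0.099 for Fga, -0.061, -0.045 and 0.016 for Fgb and -0.016, -0.076 and -0.060 for Fgg, each with a standard error of 0.13 to 0.15. F13b, the carrier subunit of the factor that cross-links fibrin, ranged from 180.1 to 252 CPM with log2 fold changes of 0.048, 0.0061 and -0.042.

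**Figure D5:**
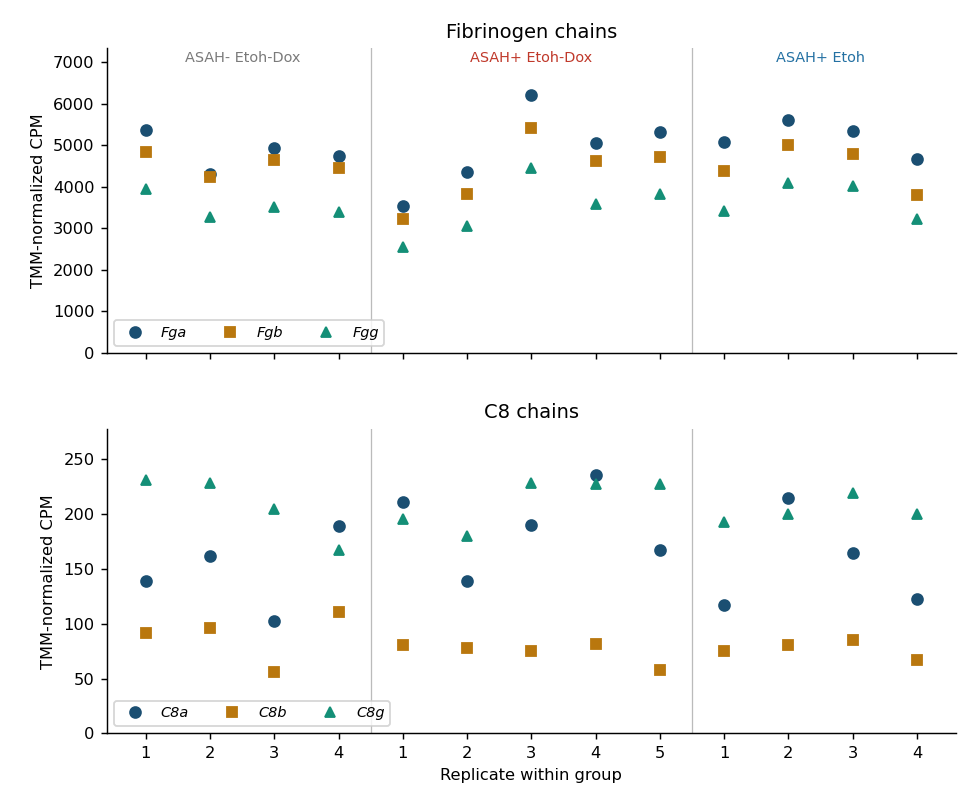
Levels of the 3 fibrinogen genes (top) and the 3 C8 genes (bottom) in each mouse, in TMM-normalized CPM on linear axes from 0, with mice in order of group and replicate number. The fibrinogen symbols shift up and down together, with the lowest and highest mice in the ASAH+ Etoh-Dox group, whereas C8a, C8b and C8g change places or distance between mice.

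The vitamin K-dependent proteins held 6 members. F2, prothrombin, stood at 1793, 1928, 2001 and 1669.8 CPM in the 4 ASAH- controls, 1884, 1711, 1827, 1778 and 1895 in the 5 induced mice, and 1708, 1693, 1837 and 1785 in the 4 Etoh controls. The groups overlapped, with log2 fold changes of -0.023, 0.051 and 0.074. Proc, which encodes protein C, the protease that inactivates factors Va and VIIIa, stood at 349, 401, 375 and 378 CPM in the 4 ASAH- controls, 359.6, 314, 340.0, 384 and 392.3 in the 5 induced mice, and 279, 298, 333 and 315 in the 4 Etoh controls. The Etoh controls lay at the low end and overlapped with only 1 mouse on Etoh-Dox, replicate 2 of the induced mice. Proc was higher in the ASAH- controls than in the Etoh controls with a log2 fold change of 0.29 ± 0.089 (SE; 95% interval 0.10 to 0.49), in 16 of the 16 pairs of mice, and this was the smallest p of any member in that comparison (unadjusted edgeR p = 0.00530, adjusted p = 0.389, exact permutation p = 0.0286). It was higher in the induced mice than in the Etoh controls with a log2 fold change of 0.22 ± 0.085 (SE; 95% interval 0.042 to 0.41), in 18 of the 20 pairs of mice (unadjusted edgeR p = 0.0195, adjusted p = 0.600, exact permutation p = 0.0397). Under the alternatives the adjusted p ran from 0.105 to 0.751 and from 0.171 to 0.927.

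Pros1, the cofactor protein S of protein C, did not share this order. It ranged from 47.8 to 60.9 CPM with log2 fold changes of -0.042, -0.15 and -0.10. F7, which starts clotting with tissue factor, ranged from 84.8 to 108 CPM, F9, the protease of the tenase complex, from 222 to 295, and F10, which cuts prothrombin, from 393 to 478. F9 was -0.15 and -0.18 on the log2 scale in the comparisons with the Etoh controls and did not pass the test (unadjusted edgeR p = 0.0867 and 0.0533, exact permutation p = 0.0476 and 0.0857). F10 differed by -0.014, 0.049 and 0.063 and F7 by 0.022, -0.13 and -0.15.

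F5 (ENSMUSG00000026579, chr1:164151838-164220277, GRCm38), the cofactor of factor Xa that protein C inactivates, stood at 602, 679, 679.8 and 738 CPM in the 4 ASAH- controls, 676, 651, 697, 701 and 710.0 in the 5 induced mice, and 764, 836, 774 and 782 in the 4 Etoh controls. All 9 mice on Etoh-Dox lay below all 4 Etoh controls, while the induced mice and the ASAH- controls overlapped. F5 was lower in the induced mice than in the Etoh controls with a log2 fold change of -0.20 ± 0.073 (SE; 95% interval -0.36 to -0.043) (unadjusted edgeR p = 0.0160, adjusted p = 0.568, exact permutation p = 0.00794), and in the ASAH- controls with a log2 fold change of -0.23 ± 0.077 (SE; 95% interval -0.39 to -0.061) (unadjusted edgeR p = 0.0108, adjusted p = 0.413, exact permutation p = 0.0286). The smallest exact p that these numbers of mice allow is 0.00794 for 5 against 4 and 0.0286 for 4 against 4. DESeq2 on the 13 mice gave adjusted p = 0.0692 and 0.0808, and over the alternatives the adjusted p ran from 0.0692 to 0.902 and from 0.0808 to 0.763. Against the ASAH- controls, the log2 fold change of the induced mice was 0.027 (95% interval -0.13 to 0.18).

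The contact system, which starts clotting on charged surfaces and releases bradykinin, held 4 members. Kng1 (ENSMUSG00000022875, chr16:23057865-23082078, GRCm38), which encodes kininogen, the source of bradykinin, was the member with the smallest p between the induced mice and the Etoh controls. It stood at 2125, 2275, 2067 and 2284 CPM in the 4 ASAH- controls, 1862, 1962, 2159, 1982 and 1989 in the 5 induced mice, and 2241, 2309.9, 2477 and 2361 in the 4 Etoh controls. The 5 induced mice lay below the 4 Etoh controls, with the ASAH- controls between and overlapping both. Kng1 was lower in the induced mice than in the Etoh controls with a log2 fold change of -0.24 ± 0.070 (SE; 95% interval -0.39 to -0.088), in 20 of the 20 pairs of mice (unadjusted edgeR p = 0.00429, adjusted p = 0.511, exact permutation p = 0.0159). DESeq2 on the 13 mice gave adjusted p = 0.00697, and the alternatives ranged from 0.00697 to 0.893. Its paralog Kng2 shares 26.5% of the words of Kng1, and with the counts of both summed the log2 fold change was -0.24 (adjusted p = 0.507, edgeR). Kng1 had the smallest within-group SD of all members, 0.071 on the log2 scale.

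F12 (ENSMUSG00000021492, chr13:55417958-55426793, GRCm38), the surface-activated protease that starts the system, stood at 320.0, 407, 335 and 287 CPM in the 4 ASAH- controls, 408, 261, 308, 404 and 421 in the 5 induced mice, and 275, 269.5, 321 and 287 in the 4 Etoh controls. The mice on Etoh-Dox were spread wide, and F12 was higher in the induced mice than in the Etoh controls with a log2 fold change of 0.32 ± 0.14 (SE; 95% interval 0.017 to 0.63), in 15 of the 20 pairs of mice, without passing the test (unadjusted edgeR p = 0.0399, adjusted p = 0.651, exact permutation p = 0.119). F11, the protease that factor XIIa and thrombin activate, stood at 39.3, 40.4, 39.6 and 55.5 CPM in the 4 ASAH- controls, 34.3, 42.1, 40.0, 29.4 and 29.6 in the 5 induced mice, and 31.2, 55.8, 32.6 and 27.0 in the 4 Etoh controls. It was highest in 1 Etoh control and 1 ASAH- control and the groups overlapped, with log2 fold changes of -0.32, -0.063 and 0.25. Klkb1, plasma prekallikrein, which lies beside F11 on chromosome 8, ranged from 254 to 368 CPM with log2 fold changes of 0.12, 0.0091 and -0.11. A readthrough gene model (Gm45753) shares 43.0% of the words of Klkb1 and stood at 43.0 to 77.1 CPM, and how the reads were divided between the pair is uncertain.

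Neither inhibitor of the clotting proteases passed the test. Serpinc1, antithrombin, stood at 2544, 2515, 2359 and 2101 CPM in the 4 ASAH- controls, 2439, 2283, 2395, 2607 and 2603 in the 5 induced mice, and 2599.6, 2489, 2708 and 2533 in the 4 Etoh controls. The lowest was replicate 4 of the ASAH- controls, and the log2 fold changes were 0.051, -0.067 and -0.12. Serpind1, heparin cofactor II, ranged from 512 to 669 CPM with log2 fold changes of -0.0039, -0.067 and -0.064. Of the fibrinolysis members, Plg, the plasminogen that yields plasmin, stood at 2860.3, 2851, 2684 and 2633 CPM in the 4 ASAH- controls, 2546, 2303, 2720.5, 2740.0 and 2691 in the 5 induced mice, and 2858, 2807, 3023 and 2886 in the 4 Etoh controls. All 5 induced mice lay below all 4 Etoh controls, with a log2 fold change of -0.15 ± 0.072 (SE; 95% interval -0.31 to 0.00036), and the test was not passed (unadjusted edgeR p = 0.0505, adjusted p = 0.680, exact permutation p = 0.0159). Serpinf2, the inhibitor of plasmin, ranged from 642 to 956 CPM with log2 fold changes of -0.090, -0.053 and 0.037.

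The spread between mice of a group was small for most members. Their median within-group SD was 0.13 on the log2 scale, against 0.24 over all genes tested. For the 31 members at a mean of 100 CPM or more it was 0.11, against 0.17 over the 1277 genes at that level. After C5ar1, the largest SDs were those of C6 (0.44), C8a (0.36), F11 (0.32) and C8b (0.28). After Kng1, the smallest were those of Cfb, C1s1 and Plg (0.074, 0.076 and 0.078).

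The other genes of these pathways were taken from 4 lists, of which 29 other complement genes, 22 other coagulation genes, 7 genes of the vitamin K cycle and secretion and 20 liver transcription and acute phase signalling genes were tested. None passed the test in any comparison (edgeR, adjusted p under 0.1), and with DESeq2 on the 13 mice Hc, Kng2, Hrg, Gas6, Fgl1, Cfp and Nr5a2 did so in at least 1 comparison with the Etoh controls. At an unadjusted p under 0.05, other complement genes were 0 higher and 2 lower between the induced mice and the ASAH- controls, 4 higher and 2 lower between the induced mice and the Etoh controls, and 7 higher and 2 lower between the ASAH- controls and the Etoh controls. Over all genes tested, 2.86%, 7.29% and 9.19% had such a p in either direction in these comparisons. Other coagulation genes were 1 higher and 2 lower, 1 higher and 4 lower, and 0 higher and 1 lower. The vitamin K genes were 0 higher and 0 lower, 0 higher and 1 lower, and 0 higher and 1 lower, and the liver factors 1 higher and 0 lower, 0 higher and 2 lower, and 0 higher and 2 lower.

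Hc, which encodes complement C5, had the smallest p of these genes in both comparisons with the Etoh controls. It stood at 917, 797, 808 and 910.2 CPM in the 4 ASAH- controls, 923, 820.5, 928, 885 and 837 in the 5 induced mice, and 1122, 1153, 1034 and 1016 in the 4 Etoh controls. All 9 mice on Etoh-Dox lay below all 4 Etoh controls. The log2 fold change was -0.30 ± 0.077 (SE) in the induced mice (unadjusted edgeR p = 0.00165, adjusted p = 0.473, exact permutation p = 0.00794) and -0.33 ± 0.082 in the ASAH- controls (unadjusted edgeR p = 0.00111, adjusted p = 0.389, exact permutation p = 0.0286), and DESeq2 gave adjusted p = 0.00443 and 0.00720, where the alternatives together ranged from 0.00443 to 0.872 and from 0.00720 to 0.747. The next against the Etoh controls were, in the induced mice, Kng2 (-0.26 on the log2 scale), Hrg, the histidine-rich glycoprotein (-0.33), Gas6, a vitamin K-dependent ligand of TAM receptors (0.71), and Fgl1, a fibrinogen-like hepatokine (-0.50). In the ASAH- controls they were Cfp, properdin (0.90), Fgl1 (-0.55), Nr5a2, a nuclear receptor of liver (-0.24), and C1qa, a C1q chain made by macrophages (0.74). C1qa stood at 44.3, 49.98, 84.2 and 50.2 CPM in the 4 ASAH- controls, 67.7, 59.4, 32.2, 43.8 and 36.4 in the 5 induced mice, and 36.6, 26.6, 35.4 and 37.9 in the 4 Etoh controls, and the mouse that was highest in it was also highest in the Kupffer cell markers, whose 7 genes had 5 with an unadjusted p under 0.05 and higher in this comparison. The part of these cells in Cfp and C1qa was not tested. Between the induced mice and the ASAH- controls the genes named by the rule were Plau, urokinase (-0.71), Hrg (-0.24), Colec11, a collectin (-0.23), Cd55, a complement regulator of cell surfaces (-0.45), and Gas6 (0.45). In this comparison the log2 fold change was also below 0 for most marker genes of the cell lists, which were 6 of 6 (median -0.40) for sinusoidal endothelium, 7 of 7 (median -0.30) for Kupffer cells, 6 of 6 (median -0.20) for stellate cells, 4 of 4 (median -0.39) for cholangiocytes, 5 of 5 (median -0.36) for red cells, 2 of 2 (median -0.46) for neutrophils, 5 of 7 (median -0.19) for hepatocytes and 1 of 2 (median -0.17) for platelets. The unadjusted edgeR p was under 0.05 for 4 endothelial, 1 stellate cell and 1 hepatocyte marker genes and for none of the remaining lists. The part of these lists in the genes named was not tested.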

How the data were processed

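RNA libraries were made from frozen livers with a stranded mRNA kit. The authors estimated transcript abundance with Salmon against GENCODE M19 (GRCm38.p6), summed it to genes with tximport and tested it with DESeq2. They deposited estimated counts per gene, which are whole numbers in the table. Salmon's version is not given in the sources used here, and the average transcript lengths of tximport were not used. All 13 columns matched a sample's description, and 0 columns belonged to no sample.

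Gene names came from GENCODE M21, which held 53355 of the 53392 identifiers. Counts were filtered by expression, scaled by TMM and tested with edgeR 4.0.16 (quasi-likelihood, robust) in R 4.3.3, with 3 group means over the 13 mice and Benjamini-Hochberg adjustment over the 14317 genes tested, at 0.1, the threshold of the study's gene table. Standard errors are on the log2 scale. Single members were also compared by an exact two-sided permutation test on means of log2 CPM (prior count 2), over 126 divisions of 5 and 4 mice or 70 of 4 and 4. DESeq2 1.42.0, limma 3.58.1 (voom), other filters, scalings and covariates, and each mouse left out were alternatives, and the sums of Klkb1 and Cfb with readthrough genes were added after seeing the data. The code was tested on simulated data.

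All members are described by role, with every mouse's value for 1 anchor per role (Mbl2, C3, C9, C5ar1, Serping1, Fga, F2, F11, F5, Serpinc1 and Plg) and for up to 10 members per comparison with the smallest unadjusted p under 0.05. Up to 5 other pathway genes per comparison are named by the same rule. C6, Masp2 and the ratios between chains were singled out after their values were seen. The members and lists were chosen with earlier results of these data known. Of the replicates the labels give a number and, in the descriptions, a code of the letter S with another number. What this code stands for is not stated there, and each replicate is taken as 1 mouse. Library totals of 17819486 to 35358711 counts leave counting error small beside the spread between mice for all members but C5ar1.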

Additional observations from a re-analysis of the deposited data

Results flagged for a closer look

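Over 111 sets of values (37 members in 3 groups), 9 values lay apart from the rest of their group by Dixon's ratio, the gap to the nearest mouse over the range of the group. Chance alone marks about 1 in 20 such sets. Masp1 stood at 147 CPM in replicate 4 of the ASAH- controls, against 168 to 172 in the others (ratio 0.847). C2 stood at 98.6 CPM in replicate 2 of the Etoh controls, against 122 to 124 in the others (ratio 0.917). C4b stood at 2269 CPM in replicate 1 of the induced mice, against 1744 to 1820.4 in the others (ratio 0.854). C8b stood at 58.1 CPM in replicate 5 of the induced mice, against 75.1 to 81.7 in the others (ratio 0.721). C5ar1 stood at 2.32 CPM in replicate 1 of the induced mice, against 0.759 to 1.08 in the others (ratio 0.793). Replicate 1 of the induced mice was the high value for both C4b and C5ar1. Cfi stood at 877 CPM in replicate 3 of the induced mice, against 723 to 766 in the others (ratio 0.720). F13b stood at 229.7 CPM in replicate 2 of the Etoh controls, against 208 to 210.1 in the others (ratio 0.886). F11 stood at 55.5 CPM in replicate 4 of the ASAH- controls, against 39.3 to 40.4 in the others (ratio 0.931). Klkb1 stood at 254 CPM in replicate 3 of the ASAH- controls, against 307 to 313 in the others (ratio 0.889). Replicate 4 of the ASAH- controls was the low value for Masp1 and the high value for F11, and replicate 2 on Etoh the low value for C2 and the high value for F13b. No cause was tested for any of these.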

How the results depend on the processing

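The count of members past the threshold stayed at 0 in every comparison under edgeR in each setting tried, under limma-voom and with each of the 13 mice left out in turn, when it was 0 to 0. DESeq2 moved it. On all 13 mice it called 3 members between the induced mice and the Etoh controls (Kng1, C1s1 and F5) and 2 between the ASAH- controls and the Etoh controls (C1s1 and F5). On only the groups compared it called 2 in the former (Kng1, adjusted p = 0.0514, and F5, adjusted p = 0.0884). Of all genes it called 114 there, out of 13584 with an adjusted p. The cause was not tested. Over 26 alternatives each, 21 differences were followed, those of the members with an unadjusted p under 0.05 and those of Masp2, C8a, C8b, Plg, F9 and Hc given with a test. Of these values 535 kept their side of the threshold and 11 passed it, all under DESeq2 (Kng1, C1s1, F5 and Hc), and none changed sign. With 1 mouse left out, the median log2 fold change of the members was -0.021 to 0.024 between the induced mice and the ASAH- controls, -0.11 to -0.041 between the induced mice and the Etoh controls, and -0.12 to -0.043 in the remaining comparison. The deviations of same-numbered mice correlated at a mean r of -0.13, 0.057 and -0.062 over 4 pairs each. Single pairs of different number ranged from -0.29 to 0.28, -0.14 to 0.16 and -0.27 to 0.31. With so few same-numbered pairs, these means cannot decide whether the replicate numbers mark pairs. With the replicate number as a block, 0 members were called and the medians were 0.00088, -0.060 and -0.068. The members at an unadjusted edgeR p under 0.05 then numbered 0, 3 and 3 of 37, against 215, 783 and 1027 of all 14317 genes tested. Depth limits C5ar1 the most, with as few as 19 counts in a library. Each of the other members had at least 248 counts in every mouse.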

Other observations

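Ratios between paired members were taken over the 13 mice, beside the fibrinogen genes described above, with the SD of each on the log2 scale. C1ra and C1s1, which encode partner proteases of the C1 complex and are neighbours in the genome, stood in a ratio of 0.534 to 0.7096 (SD 0.12 on the log2 scale), and the genes alone had SDs of 0.11 and 0.12. F11 and Klkb1, which arose from a common ancestor and lie side by side, stood in a ratio of 0.0823 to 0.177 (SD 0.36 on the log2 scale), and alone had SDs of 0.33 and 0.16. For the mannose-binding lectins Mbl1 and Mbl2, on different chromosomes, the ratio was 0.265 to 0.378 (SD 0.16 on the log2 scale), with SDs of 0.16 and 0.20 alone, and for C4b to C3 it was 0.142 to 0.223 (SD 0.20 on the log2 scale), with 0.13 and 0.17 alone. In each of these 4 pairs the ratio spread more than at least 1 of its genes, unlike the fibrinogen pairs, whose ratios spread less than either gene. The ratio of Mbl1 to Mbl2 spread less than Mbl2. A ratio that spreads more than 1 of its genes does not tell whether the genes moved together in part. The pairs were chosen with their values known, and these values are a description of 13 mice with no test.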
